A study of Mus musculus with 9 samples.

Results

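Cajal-Retzius cells are early-born neurons of the marginal zone, the outermost layer of the developing cortex. They were chosen here cell by cell, as cells with at least 1 UMI (unique molecular identifier, the count of a captured transcript) of Reln, with at least 2 of the 6 markers Trp73, Lhx1, Lhx5, Ndnf, Nhlh2 and Lhx1os, and with no UMI of Gad1 or Gad2, the enzymes that make GABA in interneurons. Cells in which haemoglobin transcripts made up over 1% of UMIs were dropped first. This rule was met by 123 of 19686 kept cells in 9 libraries.

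Reln encodes reelin, a large secreted glycoprotein that Cajal-Retzius cells release near the pial surface and that radially migrating cortical neurons receive through the receptors Vldlr and Lrp8 and the adaptor Dab1. Trp73, Lhx1, Lhx5 and Nhlh2 are transcription factors of these cells, Ndnf is a secreted factor and Lhx1os is a noncoding transcript beside Lhx1. Cajal-Retzius cells come from several borders of the cortex, among them the cortical hem and the septum, spread tangentially over the surface, and for the most part die after birth. Nhlh2 belongs to the class II basic helix-loop-helix factors, which pair with E-proteins such as TCF4 to bind DNA at E-boxes.

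The libraries were made from microdissected neocortex of single mouse embryos at E18.5, 5 labelled WT and 4 labelled KO, which were littermates from crosses of mice heterozygous for the Tcf4ex4WT/lacZ allele. The allele carries a lacZ and neomycin cassette ahead of exon 4, which removes the long protein isoform and leaves shorter ones, and in KO embryos it is present throughout the body, not in Cajal-Retzius cells alone. WT2, WT3 and WT4 (WT2-4, with values in that order) were compared with KO4 and KO5 (KO4-5), the libraries that the study itself kept. WT1, WT5, KO1 and KO2 are given beside them. The paper left out samples with few cells, and also a WT animal with lower Tcf4 than the KO. WT5, with 3630 kept cells, is taken to be that animal, so it was left out for a level of expression. By Xist, the transcript of the inactive X chromosome, KO5 was male, with 0 UMIs per 10000 in its cells meeting the rule against 10.7 to 17.6 in WT2-4 and KO4, so sex was not balanced.

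Depth and labels bear on every result below. Other cells had medians of 2439, 3625 and 4351 UMIs in WT2-4 and of 2289 and 2218 in KO4 and KO5. Tcf4 averaged 12.5, 12.7 and 12.2 UMIs per 10000 in the other cells of WT2-4 and 9.30 and 7.59 in those of KO4 and KO5. It was at 7.20 in the library labelled WT5, 4.61 in the library labelled WT1 and 16.9 in the library labelled KO1, which go against their labels. The reads come from the 3′ end of transcripts, away from the insertion, so the level of Tcf4 is no direct check of the allele. Cell barcodes shared between libraries came to at most 2.50% of the smaller library, and none belonged to a cell meeting the rule in both.

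Promoters of hand-picked genes that mark these cells or changed between genotypes are shown first, as 300 bases from the RefSeq table on GRCm38.p6. Each is read 5′ to 3′ on the gene's own strand, with the E-boxes searched for in capitals. The letters searched were CAGCTG, which reads the same on both strands, and CAGGTG, which is CACCTG on the other strand. Other E-boxes, such as CATATG and CAGATG, were not searched and stay in lower case. Nhlh2 is used by the rule, Snhg11 had the largest excess over other cells, Pcp4 fell and Sox11 rose in the KO libraries. They lie at chr3:102009895-102010194 (plus strand), chr2:158375463-158375762 (plus strand), chr16:96467356-96467655 (plus strand) and chr12:27342669-27342968 (minus strand), in the same order.
Nhlh2: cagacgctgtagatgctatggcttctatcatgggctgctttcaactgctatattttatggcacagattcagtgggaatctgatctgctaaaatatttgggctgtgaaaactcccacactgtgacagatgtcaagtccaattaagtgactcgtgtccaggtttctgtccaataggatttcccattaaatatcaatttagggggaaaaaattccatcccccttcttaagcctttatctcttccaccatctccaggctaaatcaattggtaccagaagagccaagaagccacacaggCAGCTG
Snhg11: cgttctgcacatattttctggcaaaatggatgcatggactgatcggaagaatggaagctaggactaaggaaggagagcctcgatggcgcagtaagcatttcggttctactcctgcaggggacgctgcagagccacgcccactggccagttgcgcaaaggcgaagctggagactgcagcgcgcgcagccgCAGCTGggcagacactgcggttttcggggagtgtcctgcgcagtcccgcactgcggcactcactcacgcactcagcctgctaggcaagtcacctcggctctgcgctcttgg
Pcp4: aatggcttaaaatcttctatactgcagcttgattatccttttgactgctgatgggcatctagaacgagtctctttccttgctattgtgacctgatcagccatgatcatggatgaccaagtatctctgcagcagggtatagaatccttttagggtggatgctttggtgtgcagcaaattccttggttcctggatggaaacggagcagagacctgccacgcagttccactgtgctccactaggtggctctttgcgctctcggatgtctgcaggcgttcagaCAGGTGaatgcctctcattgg
Sox11: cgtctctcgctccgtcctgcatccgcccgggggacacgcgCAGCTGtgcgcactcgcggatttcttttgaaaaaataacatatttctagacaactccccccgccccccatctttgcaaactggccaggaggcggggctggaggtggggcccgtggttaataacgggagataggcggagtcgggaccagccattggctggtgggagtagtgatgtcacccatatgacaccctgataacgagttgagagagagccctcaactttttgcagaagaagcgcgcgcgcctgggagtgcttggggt

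CAGCTG was in 1 place in each of the promoters of Nhlh2, Snhg11 and Sox11, and CAGGTG in 1 place in that of Pcp4. Of all 32851 promoters of this length, 16.3% held CAGCTG and 20.2% held CAGGTG or CACCTG. A match is a description of letters and not a binding site. Of the promoters of genes called higher in KO, 11 of 53 (20.8%) held CAGCTG and 5 (9.43%) CAGGTG or CACCTG, and of those called lower 4 of 46 (8.70%) and 12 (26.1%).

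In WT2-4 few cells lay at the threshold of the rule. Among cells with Reln and without Gad1 or Gad2 in WT4, 199 had none of the 6 markers, 12 had 1, 3 had 2, and 36 had 3 or more. In WT2, 27 cells had no marker, 1 had 1, 3 had 2 and 32 had 3 or more, and in WT3, 30 had no marker, 1 had 1, 0 had 2 and 12 had 3 or more. In these libraries 80 of the 86 cells meeting the rule had at least 3 markers.

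KO4 and KO5 had no such gap. In KO4, 238 cells with Reln had no marker, 33 had 1, 15 had 2 and 5 had 3 or more, and in KO5 176 had none, 16 had 1, 3 had 2 and 1 had 3. Of the 24 cells meeting the rule in KO4 and KO5, 18 had exactly 2 markers, against 6 of 86 in WT2-4. These numbers follow from the rule itself and carry no test. WT5 had no gap either, with 330 cells without a marker, 38 with 1, 3 with 2 and 2 with 3 or more. In the library labelled KO1, 6 of 7 cells meeting the rule had 3 or more markers, in WT5 2 of 5, and the single cell of KO2 had 4.

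**Figure D1:**
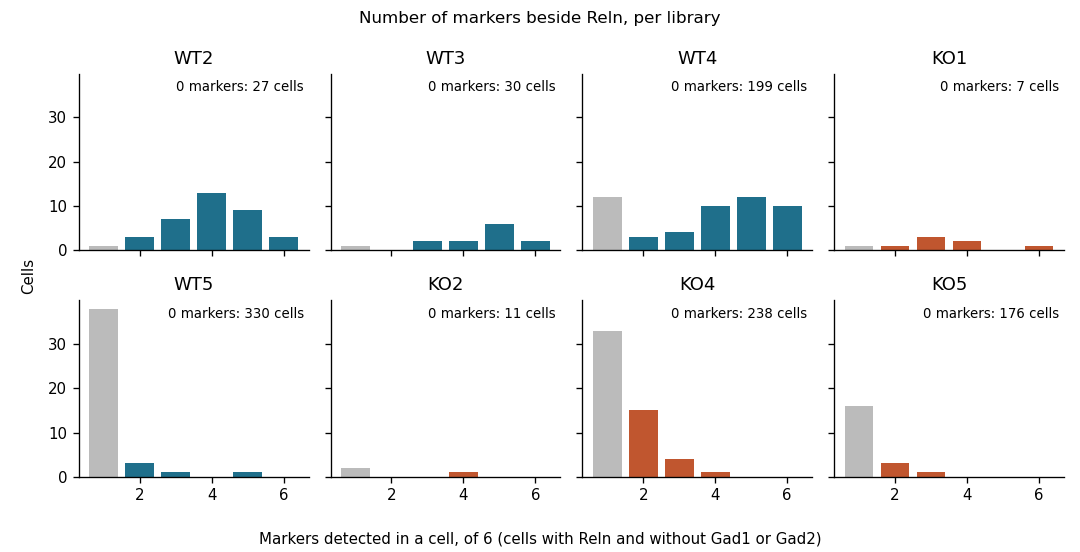
Number of the 6 markers (x axis) in cells with Reln and without Gad1 or Gad2 (y axis, number of cells), in 8 libraries, with grey bars for cells with 1 marker, coloured bars for cells meeting the rule (blue WT, orange KO), and the cells with 0 markers written in each panel. Among cells with at least 1 marker, those of WT2-4 mostly have 3 or more, and KO4, KO5 and WT5 have their highest bars at 1 and 2.

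Reln itself followed the same split. The cells of WT2 had a lowest, median and highest Reln of 4.88, 25.0 and 55.2 UMIs per 10000. Those of WT3 had 18.4, 30.5 and 52.0, and those of WT4 2.99, 31.3 and 71.6. In KO4 they were 1.90, 5.55 and 40.0, and in KO5 3.70, 7.76 and 16.5. The medians of both KO libraries were below those of the 3 WT libraries, although single KO4 cells reached the WT range.

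In counts, 12 of the 24 cells in KO4 and KO5 rested on 1 Reln UMI, against 1 of 86 cells in WT2-4. At least 4 Reln UMIs were found in 77 of the 86 WT cells and in 5 of the 24 KO cells. The cells of KO1 had a median of 32.0 Reln UMIs per 10000, just above the WT2-4 medians, and those of WT5 21.9, with 1 cell at 93.6. Reln chose the cells, so these levels are given with no test.

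**Figure D2:**
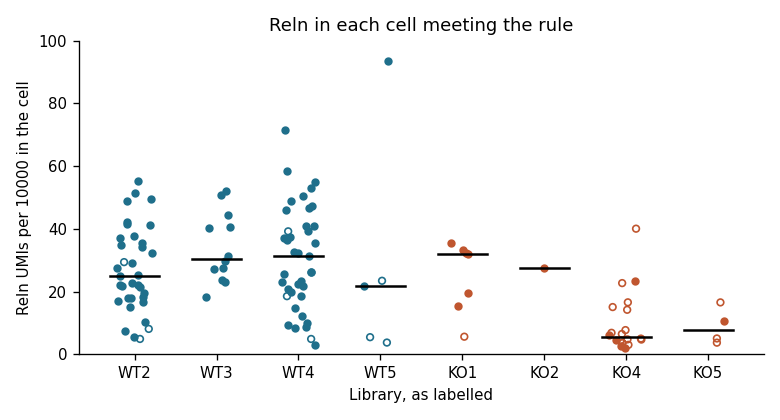
Reln UMIs per 10000 (y axis) in each of the 123 cells meeting the rule, by library (x axis), with filled points for cells with 3 or more of the 6 markers, open points for cells with 2, and a line at the median. KO4 and KO5 have medians of 5.55 and 7.76 and mostly open points.

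Reln outside the chosen cells also differed between libraries. Cells meeting the rule held 89.0, 81.9 and 59.8% of all Reln UMIs in WT2-4, but 11.3% in KO4, 2.57% in KO5 and 6.75% in WT5. Over all kept cells, Reln came to 1.33, 0.496 and 0.454 UMIs per 10000 in WT2-4 and to 0.413 and 0.491 in KO4 and KO5. Among endothelial cells and microglia, which should lack Reln, 6.67, 6.25 and 3.64% had a Reln UMI in WT2-4 and 9.66 and 18.52% in KO4 and KO5, and 2 of the KO4 cells meeting the rule were among them. The median depths of these background cells were 4590.5, 3695.5, 3950.5, 2339 and 2148.5 UMIs, in the same order. The part of this background in the cells chosen in KO4 and KO5 was not tested.

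The share of cells meeting the rule was 2.95% in WT2 (95% exact binomial interval 2.07 to 4.08, 35 of 1185 cells), 0.742% in WT3 (0.384 to 1.29, 12 of 1617) and 0.632% in WT4 (0.450 to 0.863, 39 of 6173). It was 0.476% in KO4 (0.291 to 0.734, 20 of 4201) and 0.174% in KO5 (0.0473 to 0.444, 4 of 2303). The intervals cover counting error only. Both KO shares were below the 3 WT shares, and the means were 1.44% ± 1.31 (SD, n = 3) and 0.325% ± 0.214 (SD, n = 2).

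This difference of -1.12 percentage points had p = 0.4 in a 2-sided exact permutation test over libraries, in which 3 against 2 libraries cannot give a p below 0.1. WT2 stood above WT3 and WT4, the SD of the WT shares exceeded the difference, and without WT2 the difference was -0.362 percentage points. After thinning every cell to 1800 UMIs the shares were 2.62, 0.804 and 0.551% in WT2-4 and 0.214 and 0.0868% in KO4 and KO5 (p = 0.3, exact permutation test), and with at least 3 markers they were 2.70, 0.742, 0.583, 0.119 and 0.0434% (p = 0.3, exact permutation test).

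The libraries outside the comparison spanned the same range. KO1 had 2.11% (0.852 to 4.30, 7 of 332 cells), KO2 0.847% (1 of 118), WT5 0.138% (0.0447 to 0.321, 5 of 3630) and WT1 0 of 127 cells (0 to 2.86, or up to 2.36% by the limit of 3 counts). With all 9 libraries as labelled, the mean KO share was above the WT share by 0.00837 percentage points (p = 0.976, exact permutation test).

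**Figure D3:**
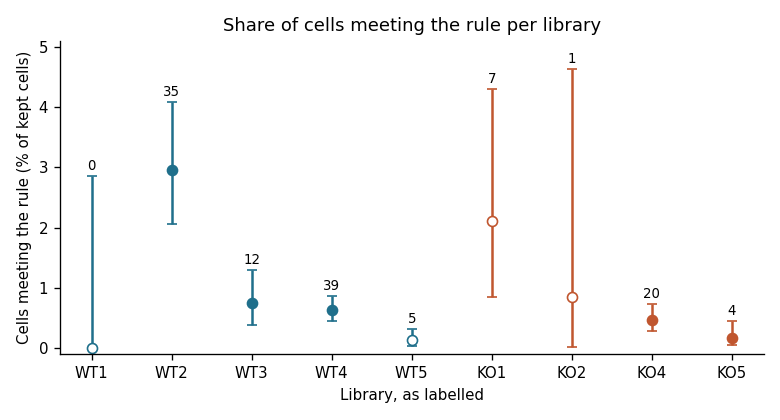
Percentage of kept cells meeting the rule (y axis) in each of the 9 libraries (x axis), with 95% exact binomial intervals and the number of cells above each, filled for the 5 libraries compared (blue WT, orange KO). WT2 stands above WT3 and WT4, and the interval of KO4 overlaps those of WT3 and WT4.

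Cajal-Retzius cells of WT2-4 held more UMIs than other cells, with medians of 4036, 5456 and 6568 UMIs against 2439, 3625 and 4351 in other cells. Cells meeting the rule had medians of 2706 in KO4 and 1946 in KO5, against 2289 and 2218 in other cells. The genotype means, 5353 ± 1269 (SD, n = 3) and 2326 ± 537 (SD, n = 2) UMIs, differed by -3027 (p = 0.2, exact permutation test, 2-sided). A rule that asks for detected genes finds deeper cells more easily, and this was not separated from the size of the cells.

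Against all other kept cells, the cells meeting the rule in WT2-4 carried the profile known for Cajal-Retzius cells beyond the genes of the rule. Those of KO4 and KO5 carried it only in part. Of 786 genes with a mean of at least 2 UMIs per 10000 in cells meeting the rule, 135 (17.2%) were higher in each of the 6 libraries with at least 5 such cells. This is a description, since the cells were chosen in this contrast. The 20 genes with the largest ratios summed to 197, 182 and 181 UMIs per 10000 in these cells of WT2-4, against 24.0, 17.1 and 30.4 in other cells. The same sum was 208 in KO1 and 104 in WT5, and it was lower, 96.5 and 56.8, in KO4 and KO5, still above 27.7 and 27.8 in their other cells.

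Snhg11, a small nucleolar RNA host gene, led this list with 11.9, 7.46 and 17.3 UMIs per 10000 in WT2-4 and with 7.32 and 4.13 in KO4 and KO5, against at most 0.569 in other cells of these 5 libraries. Pcp4, a calmodulin-binding protein, was at 32.7, 29.6 and 23.9 in WT2-4. Calb2, the calcium-binding protein calretinin and a classical label of Cajal-Retzius cells, was at 8.52, 11.2 and 6.72. These genes were high in every WT library of the comparison. Cacna2d2, a calcium channel subunit, was at 3.38, 2.29 and 4.8, and Emx2, a homeodomain factor of the medial cortex and hem, at 4.39, 4.51 and 4.75.

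Secreted and surface molecules made up another group. Cxcl12, a chemokine best known from the meninges, was at 7.84, 11.3 and 6.4 UMIs per 10000 in WT2-4, at 4.91 in KO4, at 0 in KO5 and at 1.86 in KO1. The meningeal genes Col1a1, Col1a2, Col3a1, Dcn, Igf2 and Lum summed to 0, 0.294 and 0.359 in these cells of WT2-4. Their sums were 0.095 in KO4 and 0 in KO5. In other cells they summed to 0.132, 0.238 and 0.134 in WT2-4 and to 0.188 and 0.0765 in KO4 and KO5. KO1 had 1.07 against 0.151 in its other cells. The part of meningeal RNA in the level of Cxcl12 was not tested. Gap43 and Olfm1, of growing axons and synapses, Cd200 and Cd47, of immune signalling, the growth factor Pdgfa and the receptor component Ramp1 stood in the same list. The remaining genes were Rgs4, Meg3, Diablo, Gm27199, Aldoa, Ifitm2, Dync1i1 and Clstn1.

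Of 745 genes with a mean of at least 2 UMIs per 10000 in other cells, 140 (18.8%) were lower in each of these 6 libraries, and the 10 lowest are named here. Sox11, a transcription factor of young neurons, was at 7.63, 3.81 and 5.30 UMIs per 10000 in WT2-4 against 26.8, 35.3 and 30.9 in other cells. Mef2c, a transcription factor of maturing cortical neurons, was at 1.36, 0.717 and 1.29 there. The other 8 were Fabp7, Pantr1, Id2, Hmgb2, Celf2, Meis2, Neurod6 and Ptprz1. These 10 genes summed to 25.7, 12 and 21.5 in WT2-4 but to 69.4 and 76.7 in KO4 and KO5, against 99.8 and 94.7 in the other cells of KO4 and KO5.

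**Figure D4:**
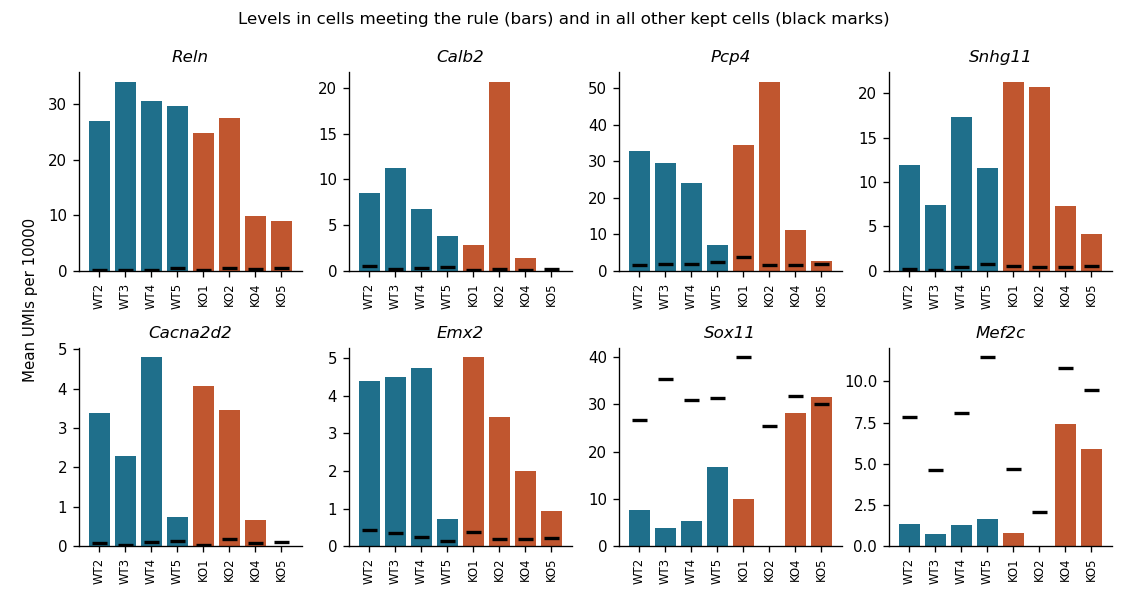
Mean UMIs per 10000 (y axes, each with its own scale) of 8 genes in cells meeting the rule (bars, blue WT, orange KO) and in all other kept cells (black marks), for 8 libraries on the x axis. KO2 is 1 cell. KO4 and KO5 have low bars for Reln, Calb2, Pcp4, Cacna2d2 and Emx2 and high bars for Sox11 and Mef2c.

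The label was set beside 14 Cajal-Retzius genes outside the rule (among them Calb2, Ebf1, Ebf2, Ebf3, Nhlh1, Tbr1, Cacna2d2, Cxcr4, Slc17a6, Emx2, Zic1 and Snhg11). They summed to 33.8, 32.5 and 42.4 UMIs per 10000 in WT2-4, 40.8 in KO1 and 20.2 in WT5, against 14.6 in KO4 and 7.68 in KO5. The sums in other cells were 2.64 to 4.13. Of the 14 genes, 9 were above other cells in each of WT2-4 and 1 was below them. Snhg11 alone gave 11.9, 7.46 and 17.3 of the sums in WT2-4, and 7.32 and 4.13 in KO4 and KO5. The list was chosen with earlier results of these data known, so it is a description and not independent evidence. Zic1, a zinc finger transcription factor, was detected in 14 of 35, 10 of 12 and 20 of 39 cells of WT2-4, and Ebf3 in 7, 3 and 16, so parts of the profile varied from cell to cell.

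At least 2 of Calb2, Emx2 and Snhg11 were detected in 71 of 86 cells of WT2-4 and in 10 of 20 of KO4 and 0 of 4 of KO5. At least 2 of 4 markers of cortical glutamatergic neurons, among them Neurod2, Neurod6 and Slc17a7, were detected in 11 of 35, 0 of 12 and 6 of 39 cells of WT2-4 and in 12 of 20 of KO4 and 2 of 4 of KO5. The data thus go partly against the label in KO4 and KO5, whose cells are called by the rule from here on. Where cells had 3 or more markers, Calb2 averaged 8.69 UMIs per 10000 in the 80 cells of WT2-4 and 5.79 in the 9 cells of WT5, KO1 and KO2, but no Calb2 UMI was found in the 6 cells of KO4 and KO5.

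At the threshold, the 6 cells of WT2-4 with exactly 2 markers had a mean Reln of 17.5 UMIs per 10000 and no Calb2, and the 14 cells with 1 marker, just outside, had 2.89 and 1.17. In KO4 and KO5 the 18 cells with 2 markers had 10.2 and 1.59, and the 49 cells with 1 marker had 7.85 and 1.11. Reln and the number of markers set this threshold, so the values are a description.

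For genes that the rule did not use, WT2-4 (86 cells) were compared with KO4 and KO5 (24 cells). The question was which genes of Cajal-Retzius cells differ between these genotypes. Levels were means over cells of UMIs per 10000, and log2 of the level plus 1 was tested over libraries with limma, with Benjamini-Hochberg adjusted p called below 0.05. Of 3888 genes tested, 55 (1.41%) were higher and 50 (1.29%) lower in KO, 2.70% in all, with a median change of -0.18 on the log2 scale over all genes. Levels that did not overlap between genotypes were found for 467 genes (12%) higher and 980 (25.2%) lower in KO. KO5 rests on 4 cells and 8408 UMIs, where 3 UMIs are worth 3.57 per 10000, and 35 of the 50 lower genes had no UMI there. Fewer Cajal-Retzius cells among those chosen and less RNA of a gene per cell cannot be told apart in these means. The calls turned on single libraries: 49 genes were called without WT2, 46 without WT3, 179 without KO5 and 2010 without KO4, 4 with at least 3 markers per cell, and 0 with the 6 libraries of 5 or more such cells as labelled (limma, 292 with an unadjusted p under 0.05). Without KO4 or KO5 the other KO library stands alone, and the spread comes from the WT libraries.

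Several genes that mark Cajal-Retzius cells fell. Of the 10 tested genes among the 14 outside the rule, 3 fell (Calb2, Cacna2d2 and Emx2) and none rose, where 1.29% of all genes fell. Their median change was -0.88 against -0.18 over all genes. Of the 20 genes highest against other cells, 9 fell (Pcp4, Calb2, Rgs4, Meg3, Cd200, Emx2, Gap43, Diablo and Cacna2d2) and none rose, against the same 1.29%, with a median of -0.94. The 20 genes were chosen on these samples, and the 14 with earlier results of these data known. Neither list is independent evidence.

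Calb2 was at 8.52, 11.2 and 6.72 UMIs per 10000 in WT2-4 and at 1.43 and 0 in KO4 and KO5, a log2 change of -2.63 (SE 0.34, limma adjusted p = 2.2e-06). The genotypes did not overlap. WT5 at 3.83 and KO1 at 2.82 lay between them, and the single cell of KO2 was at 20.7, above the WT libraries. Pcp4 went from 32.7, 29.6 and 23.9 to 11.2 and 2.62 (log2 change -2.15, SE 0.42, limma adjusted p = 0.0279), and was at 7.01 in WT5 and 34.6 in KO1. Cacna2d2 went from 3.38, 2.29 and 4.8 to 0.655 and 0 (log2 change -1.76, SE 0.36, limma adjusted p = 0.00245). WT5 was near the KO libraries and KO1 near the WT libraries for Pcp4 and Cacna2d2.

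Emx2 fell by 1.20 on the log2 scale (SE 0.33, limma adjusted p = 0.0346), from 4.39, 4.51 and 4.75 to 2.01 and 0.925, with 0.730 in WT5 and 5.03 in KO1. Diablo, which encodes a mitochondrial antagonist of inhibitors of apoptosis, fell by 1.59 (SE 0.32, limma adjusted p = 0.00192), from 5.56, 7.49 and 6.04 to 1.60 and 1.26. Rgs4 (-1.17), Cd200 (-1.11), Meg3 (-0.93) and Gap43 (-0.82), a protein of growing axons, also fell. The direction turned with the libraries as labelled for Gap43 (0.34, with 45.6 UMIs per 10000 in KO1) and Emx2 (0.0392), and with the replicate block, a fit that pairs WT2, WT4 and WT5 with KO2, KO4 and KO5 by number, for Gap43 (0.22). Snhg11, at 7.32 and 4.13 in KO4 and KO5, was not called (log2 change -0.95, limma adjusted p = 0.0668), nor was Cxcl12 (-1.94, limma adjusted p = 0.165).

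The rule for named genes adds 5 falls of genes with broad or less known roles. Msi2, an RNA-binding protein, went from 4.19, 5.30 and 3.0 UMIs per 10000 to 0.906 and 0 (log2 change -1.88, SE 0.35). Edf1 (-1.82), 1500009L16Rik (-1.68), Scoc (-1.67), a Golgi protein, and Saraf (-1.66), a regulator of store-operated calcium entry, had levels of 3.30 to 5.15 in WT2-4, of 1.03 to 1.75 in KO4 and of 0 in KO5. All 5 passed the test with limma adjusted p of 0.001 to 0.00513. Each was at 0 in KO5, below the 3.57 that 3 UMIs are worth there, so the fall rests mainly on KO4.

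Sox11 and Mef2c, low in Cajal-Retzius cells of WT, rose. Sox11 was at 7.63, 3.81 and 5.30 in WT2-4 and at 28.1 and 31.5 in KO4 and KO5 (log2 change 2.27, SE 0.26, limma adjusted p = 1.23e-07), close to the 31.7 and 30.2 of other cells in KO4 and KO5. It was at 16.8 in WT5 and 9.98 in KO1. Mef2c went from 1.36, 0.717 and 1.29 to 7.41 and 5.92 (log2 change 1.86, SE 0.33, limma adjusted p = 0.000522). Of the 10 genes lowest against other cells, 5 rose (Sox11, Mef2c, Ptprz1, Pantr1 and Fabp7) and none fell, against 1.41% of all genes higher in KO. These genes were chosen for low values in cells that include those of WT2-4, which favours a rise, so the count is not independent evidence. With the replicate block, in which KO2 is 1 cell without a Sox11 UMI, Sox11 was at -0.0111.

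Another group of risen genes was also high in the other cells of the KO libraries. Actb, cytoplasmic actin, was at 51.9, 24.2 and 31.6 UMIs per 10000 in the cells of WT2-4 and at 166 and 188 in KO4 and KO5 (log2 change 2.34, SE 0.21, limma adjusted p = 5.32e-08). In other cells it was at 50.3, 64.6, 40.5, 172 and 170 in these libraries, and at 197 in WT5. Pam, an enzyme that amidates neuropeptides, went from 0.260, 0 and 0.133 to 4.47 and 9.29 (log2 change 2.74, SE 0.36, limma adjusted p = 2.2e-06). It was at 4.61 in WT5 and 0 in KO1.

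Ncam1, a neural adhesion molecule (2.1), Clasp2, a microtubule plus-end protein (2.09), and the transcription factor Nfia (1.73) rose too. All of Pam, Actb, Ncam1, Clasp2 and Nfia also rose in cortical glutamatergic cells of the same libraries. Of the 10 genes known from earlier results on upper layer cells of these libraries, these 5 rose, against 1.41% of all genes. Id2, Ptn, Eif1b, Tspan13 and Dok5 did not pass the test. These 10 genes were known from the same libraries, so the count is not independent evidence. The library labelled WT5 was at the level of the KO libraries for Actb (153 in its cells meeting the rule), Ncam1 (16.6), Clasp2 (4.98) and Nfia (15.2), and KO1 at or near the level of WT2-4 for Actb (19.4), Ncam1 (4.89), Clasp2 (0) and Nfia (5.39).

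Haemoglobin transcripts rose in the same libraries, although neurons make little of them. Hbb-bs was at 2.40, 2.31 and 1.62 UMIs per 10000 in WT2-4 and at 10.1 and 34.3 in KO4 and KO5 (log2 change 2.68, SE 0.34, limma adjusted p = 3.2e-06). Hba-a1 (2.32) and Hba-a2 (2.22), near-identical genes whose reads cannot be divided with certainty, rose with it. The 5 erythroid genes summed to 6.79, 8.54 and 5.40 in the other cells of WT2-4, to 32.1 and 72.0 in those of KO4 and KO5, and to 46.3 in those of WT5. The part of haemoglobin and of other free RNA in the changes above was not tested.

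Markers of other cell types were counted in the same fit, in which 1.41% of all genes rose and 1.29% fell. Of the radial glia and astrocyte list, 2 of 4 tested genes rose (Fabp7, 1.38, and Dbi, 1.15), and the list summed to 8.74, 8.75 and 11 UMIs per 10000 in WT2-4 and to 18.4 and 36.1 in KO4 and KO5. Npy, an interneuron neuropeptide (1.53), and Cldn5, of endothelial cells (0.89, on 8 UMIs in all), also rose. Part of the Cldn5 UMIs lay in the 2 KO4 cells that were also among the background cells above. The microglial genes C1qa, C1qb, C1qc, Csf1r, Cx3cr1 and P2ry12 were at 0 in all cells meeting the rule. Of the upper layer list, 0 of 6 tested genes were called by limma (4 had an unadjusted p under 0.05, among them Cux2, Pou3f2 and Pou3f3), with a median of 0.85. Of the deep layer list, Nfib, a nuclear factor I family member, fell (-1.38, but 0.36 with the libraries as labelled) and 2 others were not called.

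Ribosomal protein genes rose in 10 of 80 cases, against 1.41% of all genes, and fell in none, with a median of 0.44. This list was chosen after values were seen, so the count is a description. They summed to 1393, 1350 and 1428 UMIs per 10000 in WT2-4 and to 1890 and 1955 in KO4 and KO5. In other cells the sums were 1683, 1458 and 1790 against 2096 and 2021.

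Of 20 genes of the reelin pathway 11 were tested, and none was called by limma, where 2.70% of all genes were, with a median of -0.06 against -0.18 over all genes. Mapt, a microtubule-associated protein, was at 9.19, 6.19 and 9.31 in WT2-4 and at 5.58 and 8.92 in KO4 and KO5. The receptor Lrp8 was at 0.595, 0.337 and 0.478 and at 0.996 and 0 there. At 8408 UMIs in KO5, a gene of this level could not be measured in that library.

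Nor was any gene called of 12 tested in migration and guidance, 7 in chloride transport, receptors and channels, 5 in apoptosis, 5 among neuronal basic helix-loop-helix factors and 2 among E-proteins and their Id antagonists. With 2.70% of all genes called, lists this short cannot be told from all genes by a count of 0. Bax, an effector of apoptosis, was at 3.99, 5.08 and 4.40 in WT2-4 and at 2.13 and 3.56 in KO4 and KO5 (log2 change -0.53, limma adjusted p = 0.327). Slc12a2 and Slc12a5, the chloride transporters that set the response to GABA, had 4 and 2 UMIs over the 5 libraries and were not tested.

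Tcf4 was lower in the cells meeting the rule than in cortical glutamatergic cells of all 5 libraries compared. It was at 4.04, 3.21 and 4.84 UMIs per 10000 in WT2-4, against 14.3, 14.0 and 14.5 in cortical glutamatergic cells. In KO4 and KO5 it was at 6.33 and 6.46, against 9.67 and 7.47. The genotype change in the cells meeting the rule was 0.57 on the log2 scale and did not pass the test (SE 0.30, limma adjusted p = 0.264), whereas in cortical glutamatergic cells it was -0.68 (limma adjusted p = 0.0461). In the cells meeting the rule it turned to -0.58 with at least 3 markers per cell and to -0.69 with the replicate block. With at least 3 markers KO5 is 1 cell without a Tcf4 UMI, and so is KO2 in the replicate block. Over cells with at least 3 markers, Tcf4 averaged 3.78 in the 80 of WT2-4 and 7.18 in the 6 of KO4 and KO5.

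**Figure D5:**
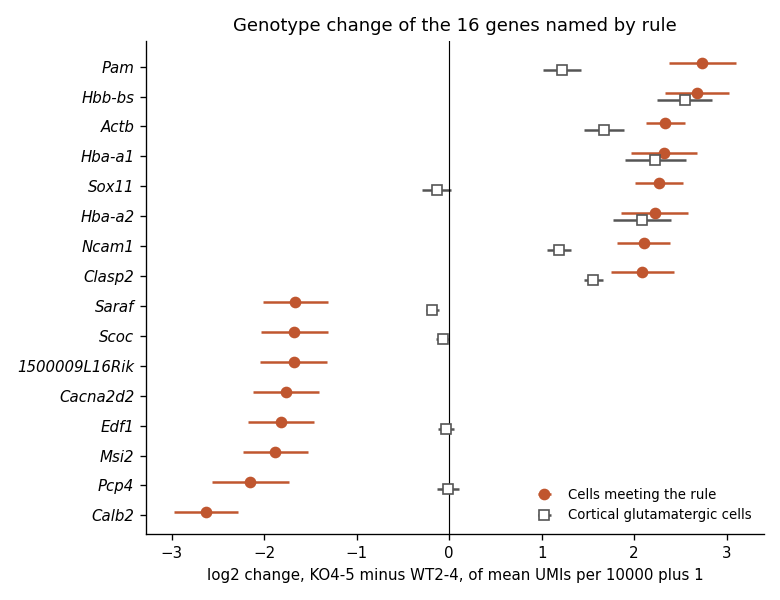
Change between genotypes (x axis, log2 of mean UMIs per 10000 plus 1, KO4 and KO5 minus WT2-4, with limma's standard error) of the 16 genes named by rule (y axis), in cells meeting the rule (filled) and in cortical glutamatergic cells (open). Calb2, Msi2, Cacna2d2 and 1500009L16Rik were too low in cortical glutamatergic cells to be tested, Sox11 differs most between both kinds of cell, and haemoglobin genes and Clasp2 lie close together.

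To set library-wide changes apart, the difference between the cells meeting the rule and cortical glutamatergic cells (2 or more of the same 4 markers, and no Reln, Gad1 or Gad2) was compared between genotypes within libraries. Of 4252 genes, 32 (0.753%) had a higher and 27 (0.635%) a lower difference in KO, 1.39% in all. In WT2-4, all 27 lower genes were above other cells in each library, and 31 of the 32 higher genes were below them, against 1362 above and 1067 below among all 4252 genes. The WT level enters both quantities, so the direction is partly fixed. At least 2 of the same 4 markers were also detected in 12 of 20 chosen cells of KO4 and 2 of 4 of KO5. In WT2-4 they were detected in 11 of 35, 0 of 12 and 6 of 39. The mix of cells chosen and a change within Cajal-Retzius cells cannot be told apart in this fit either. Actb, Ncam1, Clasp2 and the 3 haemoglobin genes did not pass this test, with differences of 0.67, 0.91, 0.53 and 0.09 to 0.14. Pam, from the same group of risen genes, passed with 1.52 (SE 0.37, limma adjusted p = 0.0278). It was at -0.0855 with all libraries as labelled and at -0.11 with the replicate block. Without WT3 18 genes were called, without KO5 139, without KO4 2144 (1 KO library in each of the last 2), and with libraries of 5 or more such cells as labelled 0 (limma, 238 with an unadjusted p under 0.05).

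Calb2, Pcp4, Cacna2d2 and Meg3 passed. The difference changed by -2.39 for Calb2 (SE 0.39, limma adjusted p = 0.00104), by -2.13 for Pcp4 (SE 0.39, limma adjusted p = 0.00876), by -1.82 for Cacna2d2 (SE 0.35, limma adjusted p = 0.0063) and by -1.73 for Meg3 (SE 0.23, limma adjusted p = 3.55e-05). For Meg3, a maternally expressed noncoding RNA, the levels were 39.1, 22.2, 46.2, 20.6 and 15.0 in the cells meeting the rule and 4.83, 2.58, 9.03, 9.30 and 9.37 in cortical glutamatergic cells of the libraries WT2-4 and KO4-5. The genotypes did not overlap in either kind of cell, and the gap between both kinds was narrower in KO.

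Among higher differences, Sox11 was first with 2.40 (SE 0.25, limma adjusted p = 1.95e-06), but at -0.0546 with the replicate block. In that block KO2 is 1 cell without a Sox11 UMI. Sox11 in cortical glutamatergic cells was at 30.3, 40.0, 35.5, 33.4 and 30.3 in the libraries WT2-4 and KO4-5, levels that overlapped between genotypes. Pantr1 (1.93), Ptprz1 (1.83), Meis2 (1.77), Mef2c (1.56), Celf2 (1.56) and Pou3f2 (1.57) followed, genes of cortical neurons and their precursors.

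For Tcf4 the difference rose by 1.25 (SE 0.26, limma adjusted p = 0.00876; -0.48 with the replicate block), for its antagonist Id2 by 1.43 and for Neurod2, a class II partner, by 1.44. Id2 was at 1.76, 0.585 and 2.34 in the cells of WT2-4 and at 1.31 and 2.57 in KO4 and KO5, while in cortical glutamatergic cells it went from 11.8, 13.9 and 10.9 to 5.14 and 4.31. For Id2 the genotypes thus overlapped in the cells meeting the rule and were apart in cortical glutamatergic cells. The guidance genes Nrp1 (1.47), Plxna4 (1.43) and Epha5 (1.44), the glutamate receptor subunit Gria2 (1.44, but -0.26 with the replicate block), and Ptn (1.37) and Eif1b (1.09) also had a higher difference.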

How the data were processed

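Per the labels, neocortices of single E18.5 embryos were run on Chromium 3′ v2, and reads were processed with Cell Ranger 2.1.0 and Seurat 2.3.4 on GRCm38. The deposited values were UMI counts for WT4, WT5, KO4 and KO5 and the natural log of 1 plus UMIs per 10000, as made by the authors, for WT1, WT2, WT3, KO1 and KO2. Whole UMIs were recovered from the latter for 100% of values. The members and gene lists were chosen with earlier results of these data known. Doublets were not called.

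Levels were averaged per library over cells, each library being 1 embryo. Genes at 0.5 UMIs per 10000 or more in at least 2 libraries were tested with limma 3.58.1 (trend, robust, pseudocount 1), calls being Benjamini-Hochberg adjusted p below 0.05. Summed counts were tested with edgeR 4.0.16 and DESeq2 1.42.0 as alternatives. On simulated data for the genotype comparison (4068 genes), limma recovered 48.2% of genes changed by 2 and 61.5% of those changed by 3 on the log2 scale. Of its calls 82.8% were true and 20 were false, a larger share than the limit of 0.05 allows. The simulation used summed counts, 1 profile for all libraries and a fixed scatter. It held no library-wide shifts and no mixture of cells, so these shares do not carry over to the calls above. Named genes were the 8 largest called rises and falls (20 or more UMIs, genotypes apart), the 20 highest and 10 lowest against other cells, list members, and 10 genes known from upper layer cells. Shares were compared by exact permutation tests over libraries. Libraries held 348105 to 29767293 UMIs, and cells meeting the rule 2901 to 240859 per library. Some members of the gene lists are not reported here by name.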

Additional observations from a re-analysis of the deposited data

Results flagged for a closer look

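Among 26 groups of values checked for a library far from the others (chance alone marks about 5%), WT2 stood apart with a share of 2.95% and with 1.33 Reln UMIs per 10000 over all kept cells. WT5 stood apart from the other WT libraries for Emx2, at 0.730. KO2, which rests on 1 cell, stood apart with 0 UMIs per 10000 of Tcf4 and 20.7 of Calb2.

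The genotype change differed between cells meeting the rule and cortical glutamatergic cells, by limma's test of the difference, for 32 genes in the higher and 27 in the lower direction. On the log2 scale the lower named differences were -2.39 for Calb2, -2.13 for Pcp4, -1.85 for Msi2, -1.82 for Cacna2d2, -1.78 for Edf1, -1.74 for 1500009L16Rik, -1.73 for Meg3, -1.64 for Gm28050, -1.55 for Diablo and -1.02 for Gap43. The higher were 2.40 for Sox11, 1.93 for Pantr1, 1.83 for Ptprz1, 1.77 for Meis2, 1.74 for Igfbpl1, 1.57 for Pou3f2, 1.56 for Mef2c and for Celf2, 1.52 for Pam, 1.47 for Nrp1, 1.44 for Gria2, Epha5 and Neurod2, 1.43 for Plxna4 and Id2, 1.37 for Ptn, 1.25 for Tcf4 and 1.09 for Eif1b.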

How the results depend on the processing

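The genotype calls in cells meeting the rule depended on the processing. Against 105 genes (55 higher, 50 lower), edgeR called 37 with TMM (29 and 8) and 42 with RLE (30 and 12), DESeq2 23 (21 and 2), a filter of 2 UMIs per 10000 35 (23 and 12), no filter 68 (38 and 30), a pseudocount of 0.25 34 (25 and 9), libraries with 10 or more cells 179 (71 and 108), at least 3 markers 4 (3 and 1), all libraries as labelled 0, and the replicate block 1 (174 with an unadjusted p under 0.05). Leaving out 1 library gave 46 to 2010. For the difference from cortical glutamatergic cells, 59 became 4 with a pseudocount of 0.25, 4 with a filter of 2, 0 with all libraries as labelled and 0 with the replicate block (236 with an unadjusted p under 0.05), and 18 to 2144 with 1 library left out. The share difference became 0.00837 with all libraries as labelled and -0.0294 with the replicate block, and -1.52 to -0.362 with 1 library left out.

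Reversed on the log2 scale were, with all libraries as labelled, Nfib (0.36), Gap43 (0.34) and Emx2 (0.0392), and in the difference Pam (-0.0855) and Gap43 (0.0831). With the replicate block they were Sox11 (-0.0111), Gap43 (0.22) and Tcf4 (-0.69), and in the difference Sox11 (-0.0546), Pam (-0.11), Gria2 (-0.26), Gap43 (0.41) and Tcf4 (-0.48). Tcf4 reversed to -0.58 with at least 3 markers. In the replicate block KO2 is 1 cell, with no UMI of Sox11 or Tcf4, and with at least 3 markers KO5 is 1 cell, with none of Tcf4. The cause of the reversals was not tested. Same-numbered libraries deviated together with correlations of 0.203, 0.031 and 0.140 in cells meeting the rule and of -0.00826, 0.283, 0.176 and 0.550 in cortical glutamatergic cells, in neither kind of cell all above 0.1, so they are taken to share only a number. The gene fits as labelled used WT2 to WT5, KO1 and KO4, each with 5 or more cells. KO5 rests on 4 cells, which limits every gene of low level there.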
